A study of Mus musculus with 12 samples.

Results

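Among the nuclei of the cold-exposed mPRAT library, 6320 of 11134 barcodes with at least 300 genes carried urothelial marker genes, 56.8% of the library (exact 95% interval 55.8 to 57.7). They are called urothelial-marker nuclei here. They were chosen by their counts of marker genes. A barcode, the tag of 1 droplet that is taken to hold 1 nucleus, was a member when it had at least 3 UMIs (counted RNA molecules) of Upk3a, Krt5, Krt7, Grhl3, Foxa1, Epcam and Cdh1 together, with at least 2 of these 7 genes seen, and when that sum was above the sum of Adipoq, Plin1, Acsl1, Flt1, Lama2, Mrc1 and Ptprc. No limit on mitochondrial UMIs was set in choosing them. Nuclei above and at or below 10% mitochondrial UMIs, a limit often used to drop barcodes, were then compared. Of these nuclei 6097 lay above the limit and 223 at or below it. All 12 libraries together held 118550 barcodes with at least 300 genes, and 8390 of them met the same rule.

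The series profiled nuclei of mouse adipose depots at several ages and after cold. Each of its 12 groups is 1 library. The mice of cold mPRAT were males of the strain C57BL/6J, fed a normal chow diet and kept at 4 °C for 3 days. Its title gives an age of 6 months and its characteristics give 16 weeks. The room-temperature mPRAT libraries came from mice of the same strain, sex and diet kept at 22 °C, at 1 month (4 weeks), 2 months (8 weeks) and 6 months (again 16 weeks in the characteristics), and lPRAT at 22 °C was sampled at 2 months (8 weeks) and 6 months (16 weeks). From the same kind of mice, iBAT was sampled at 22 °C at 1, 2 and 6 months (4, 8 and 16 weeks) and iWAT at 6 months (16 weeks), and both also after 3 days at 4 °C at 6 months (16 weeks). The labels name the tissue only as adipose and do not say how many animals were pooled. Whether a library holds 1 animal or several is therefore unknown, no between-group test was possible, and every interval covers counting error only. Differences between animals or dissections cannot be told apart from age or cold. Total UMIs per library ranged from 5461133 to 87035783, and cold mPRAT had 77838918.

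The urothelium is the stratified lining of the renal pelvis, ureter and bladder. Basal cells express Krt5 and Trp63, while the umbrella cells on the luminal side are covered by plaques of uroplakins, which form the permeability barrier to urine. Perirenal fat lies beside the kidney and the upper ureter. The 13 protein-coding genes of the mitochondrial genome are transcribed in the mitochondrion, outside the nucleus. Their RNA in a preparation of nuclei thus comes from material outside the nucleus.

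The sequences just upstream of 1 umbrella gene and 1 basal gene are shown because Upk3a and Krt5 define the subsets compared below. Each is the 250 bases before the RefSeq gene start, on the gene's own strand (GRCm38.p6), for Upk3a at chr15:85016891-85017140 on the plus strand and for Krt5 at chr15:101712906-101713155 on the minus strand.
Upk3a: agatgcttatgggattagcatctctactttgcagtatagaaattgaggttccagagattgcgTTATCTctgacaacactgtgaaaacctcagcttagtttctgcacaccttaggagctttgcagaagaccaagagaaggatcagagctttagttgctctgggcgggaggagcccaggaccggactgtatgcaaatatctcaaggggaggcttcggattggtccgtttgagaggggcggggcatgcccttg
Krt5: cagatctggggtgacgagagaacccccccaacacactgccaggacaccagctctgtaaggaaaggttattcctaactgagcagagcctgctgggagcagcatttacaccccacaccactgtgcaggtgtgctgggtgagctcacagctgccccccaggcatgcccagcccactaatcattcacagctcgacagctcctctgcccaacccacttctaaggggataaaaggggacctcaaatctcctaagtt
Capitals mark a match to AGATAA, the core motif of GATA factors, read on the reverse strand. Both strands were searched for AGATAA, AACCGGTT (Grainyhead), TGTTTAC (forkhead factors) and the core promoter element TATAAA. The Upk3a window held 1 match, 188 bases before the start, and the Krt5 window held none. Of 2 further umbrella genes searched, the Upk1a window held none and the Krt20 window held 1 match each to the GATA and the core promoter motif. AGATAA occurred in 9.99% of all 32851 promoter windows of that table, AACCGGTT in 0.116%, TGTTTAC in 3.17% and TATAAA in 12.4%. These letters are a description and not evidence of binding.

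The urothelial label held on genes that the rule did not use. Uroplakins and Krt20, a keratin of umbrella cells, summed to 2152 CPM (counts scaled to a non-mitochondrial total of 1000000 UMIs, pooled over nuclei) in the urothelial-marker nuclei. The same list summed to 263 CPM in 2366 adipocyte-marker nuclei of the library, a ratio of 8.19 (7.92 to 8.48), and 5 of its 6 genes were at least 2-fold higher. Over all 14335 genes with at least 50 counts, 12.8% were at least 2-fold higher and 9.68% at least 2-fold lower in this comparison, with 10 CPM added to both levels. With each nucleus thinned to 500 non-mitochondrial UMIs, a Upk1b UMI was seen in 38.4% of urothelial-marker and in 5.41% of adipocyte-marker nuclei, and a Krt20 UMI in 10.05% and 0.634%. These comparisons describe the chosen nuclei, since the rule and the other genes were read in the same barcodes. Adipocyte-marker nuclei were in turn required to have more UMIs of adipocyte markers than of the urothelial genes of the rule.

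The 4 label markers are among the 7 genes that chose the nuclei, so their levels are a description and their excess over other nuclei was set by the rule. Upk3a, a uroplakin of the luminal membrane (GRCm38 chr15:85017141-85022547), stood at 433 CPM against 68.6 CPM in adipocyte-marker nuclei. Krt7, a keratin of simple and transitional epithelia (chr15:101411043-101430313), stood at 570.1 against 72.7 CPM. Krt5, the basal keratin (chr15:101707070-101712898), stood at 128 against 20.6 CPM. Grhl3, a Grainyhead factor needed for umbrella cell differentiation (chr4:135541888-135573630), stood at 129 against 8.51 CPM. Levels of different genes are not set against each other, since no length correction was made.

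Outside the rule, the uroplakin Upk1b was at 1276 CPM against 123 CPM in adipocyte-marker nuclei. Its relative Upk1a was at 389.7 against 72.8 CPM and Krt20 at 249 against 19.9 CPM. Trp63, the p63 factor of basal and intermediate cells, was at 1209 against 119 CPM. Gata3, a urothelial transcription factor, was at 1025 against 95.02 CPM, and Foxq1, a forkhead factor, at 645 against 71.3 CPM. Over all genes in this comparison 12.8% were at least 2-fold higher and 9.68% at least 2-fold lower. In the list of urothelial regulators 12 of 15 genes were at least 2-fold higher, as were 20 of 22 tested junction genes and all 10 tested genes of the epithelial splicing, polarity and protease list. Other lists were mixed, with 6 of 10 channel and transporter genes higher and 1 lower, 6 of 12 tested growth factor genes higher and 1 lower, 5 of 9 tested basal genes higher and 1 of 3 tested retinoid genes higher. The growth factor list summed to less than in adipocyte-marker nuclei, at 976 against 2438 CPM, of which Nrg4, an adipocyte-secreted ligand, made up 23.3 and 2109.9 CPM. From the channel list Slc14a1, the UT-B urea transporter, was at 169 against 16.5 CPM. Pparg, which serves both adipocytes and urothelium, was at 2416 CPM in the urothelial-marker nuclei and at 3415 CPM in the adipocyte-marker nuclei. Ucp1 was at 13.6 against 689 CPM.

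**Figure D1:**
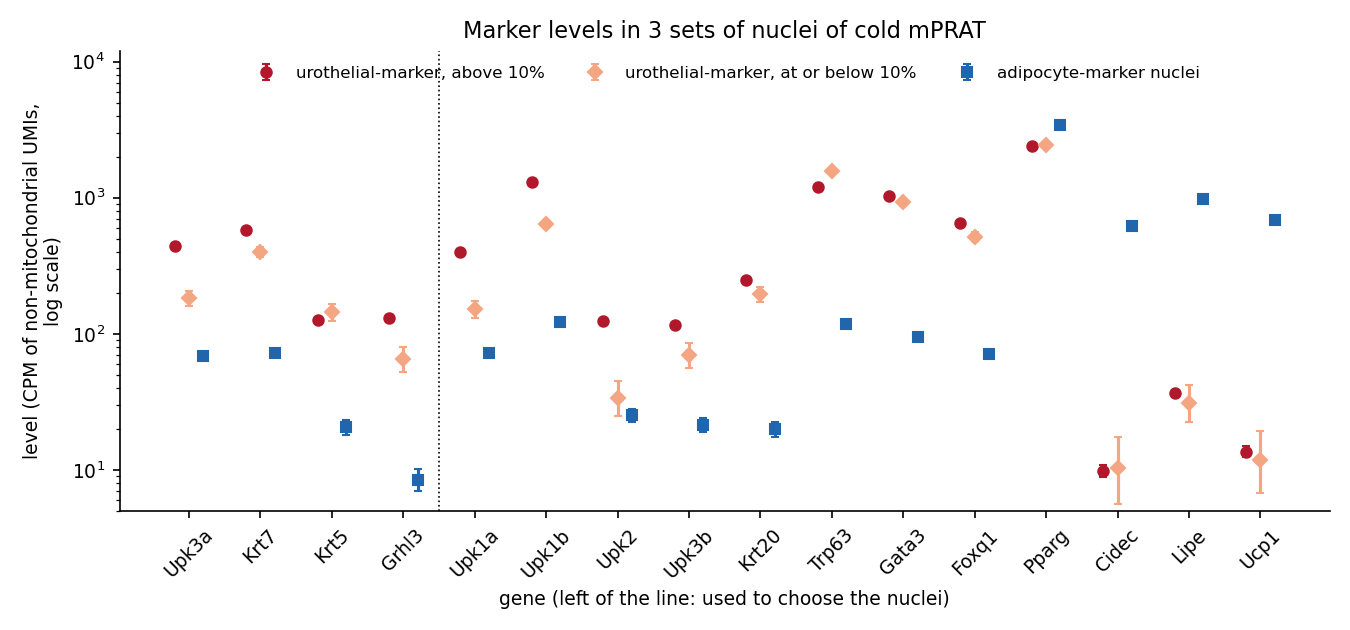
Level of 16 genes in CPM of non-mitochondrial UMIs (log axis) in urothelial-marker nuclei above 10% mitochondrial UMIs (n = 6097), urothelial-marker nuclei at or below it (n = 223) and adipocyte-marker nuclei (n = 2366) of cold mPRAT. Bars are exact Poisson 95% intervals. The 12 genes from Upk3a to Foxq1 are higher in urothelial-marker than in adipocyte-marker nuclei on both sides of the limit, with overlapping intervals for Upk2 at or below it. Of these, Upk3a, Krt7, Krt5 and Grhl3 are genes of the rule, which set their excess. Pparg, Cidec, Lipe and Ucp1 are higher in adipocyte-marker nuclei.

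Most markers of neighbouring tissues were at low levels. The summed levels were 4.74 CPM for 8 proximal tubule genes, 0.355 CPM for 6 loop and distal tubule genes, 0.0254 CPM for 4 intercalated cell genes and 0.203 CPM for 6 male accessory gland genes. Pax8, which marks kidney tubules, was at 1.95 CPM, while Pax2, a factor of the nephric lineage, was at 92.8 CPM. Some keratins of stratified epithelia were at or near 0, and of these Krt17, Krt6a and Krt14 belong to the basal list used here. Of the 12 genes of that list 9 had enough counts to be tested against adipocyte-marker nuclei. Krt17 had no UMI among 39435917 non-mitochondrial UMIs, Krt6a was at 0.0254 CPM, Krt13 at 0.152 CPM and Krt14 at 1.17 CPM. Sprr1a, a cornified envelope gene, was at 1079 against 156 CPM in adipocyte-marker nuclei. Adrenal cortex markers summed to 28.9 CPM, below the 110 CPM in adipocyte-marker nuclei.

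Genes beyond the marker lists also stood out. Against all 4814 other barcodes of the library 7.39% of 15122 genes were at least 2-fold higher, and the leading ones were Ksr2, Fut9, Snx31, Scube2 and Fmo5. Snx31, a sorting nexin of umbrella cells, was at 796 CPM against 90.9 CPM. Fmo5, a flavin monooxygenase, was at 2490 against 356 CPM. Ksr2, a scaffold of the MAP kinase cascade, was at 192 against 13.8 CPM. Htr4, a serotonin receptor, was at 737 against 101 CPM, and Rab27b, a GTPase of vesicle delivery, was at 1292 against 220.1 CPM. The other barcodes are not free of urothelial RNA, as the values for adipocyte-marker nuclei show.

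Urothelial RNA was widespread in the library, including nuclei that the rule left out. Upk3a and Krt7 are genes of the rule, so the gap between the sets is fixed by it, and the values in adipocyte-marker nuclei are the ones of interest. A Upk3a UMI was found in 74.6% of urothelial-marker nuclei and in 25.7% of adipocyte-marker nuclei. When each nucleus was thinned to 500 non-mitochondrial UMIs, which left out 1 nucleus of each set, the shares were 19.2% (18.3 to 20.2) and 4.19% (3.41 to 5.07). The median depths before thinning were 5186 and 4819 non-mitochondrial UMIs. The thinned share for Krt7 was 24.8% against 3.64%.

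The mitochondrial share set the urothelial-marker nuclei apart from adipocyte-, stromal-, endothelial- and macrophage-marker nuclei of the library. It played no part in the rule. The urothelial-marker nuclei were however named for it with results of this library known, so its values in cold mPRAT are a description. In cold mPRAT 96.5% of them lay above 10% mitochondrial UMIs (96.0 to 96.9). The share was 11.3% (10.1 to 12.7) in adipocyte-marker nuclei, 16.2% (12.7 to 20.2) in 395 stromal-marker nuclei, 23.6% (16.9 to 31.4) in 144 endothelial-marker nuclei and 23.4% (18.7 to 28.6) in 295 macrophage-marker nuclei. The difference from adipocyte-marker nuclei was 85.1 percentage points. Each comparison set left out barcodes whose urothelial marker UMIs equalled or exceeded those of its own list. The median mitochondrial share was 29.1% in urothelial-marker nuclei, with its 5th and 95th percentiles at 11.6% and 50.9%, against a median of 0.933% in adipocyte-marker nuclei. A limit at 10% would thus keep 223 of the 6320 nuclei. Of all 7353 barcodes above the limit in this library, 82.9% were urothelial-marker nuclei. Of the 1256 others above it, 77.4% (74.97 to 79.68) carried at least 1 UMI of the 7 marker genes, against 50.98% (49.3 to 52.6) of the 3558 other barcodes at or below it.

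**Figure D2:**
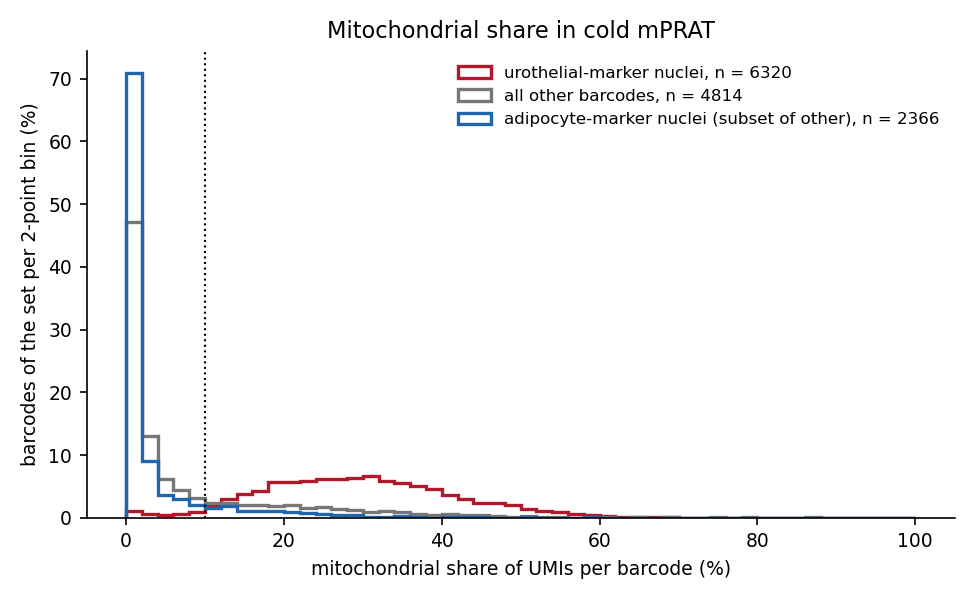
Mitochondrial share of UMIs per barcode in cold mPRAT (x axis, %), as the percentage of each set in bins of 2 points (y axis), for urothelial-marker nuclei, all other barcodes and the adipocyte-marker subset of these. The dotted line is the 10% limit. Adipocyte-marker nuclei pile up near 0, while urothelial-marker nuclei spread broadly around their median of 29.1%.

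The nuclei above the limit were not shallow. Their median was 7440 UMIs in all, 5186 non-mitochondrial UMIs and 2686 genes, against 5419, 5199 and 2534 in those at or below it. The make-up of the mitochondrial RNA differed little by complex. Complex IV genes gave 50.4% of mitochondrial UMIs above the limit and 48.8% at or below it, complex V genes 20.8% and 21.6%, complex I genes 18.2% and 19.5%, and the complex III gene 10.7% and 10.2%. Among rarer transcripts mt-Nd6 gave 0.106% of mitochondrial UMIs above the limit and 0.373% at or below it (294 UMIs), mt-Nd4l 0.287% and 0.407%, and mt-Atp8 0.0834% and 0.123%. In adipocyte-marker nuclei above the limit complex I genes gave 22.7%.

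Umbrella-layer genes were higher above the limit than at or below it. The uroplakin and Krt20 list summed to 2190 CPM against 1091 CPM, a ratio of 2.01 (1.91 to 2.12), and 3 of its 6 genes were at least 2-fold higher. Among all 13437 genes tested 0.454% were at least 2-fold higher above the limit, 61 genes, and 1.08% at least 2-fold lower, 145 genes, with a median log2 ratio of 0.05. These counts and their balance depend on the setting, with 118 higher and 43 lower at a limit of 20%, 752 and 453 with 1 CPM added and 5 and 262 in CPM of all UMIs. Upk2, a uroplakin that pairs with Upk1a, was at 125 CPM above and 34.0 CPM at or below the limit, a ratio of 3.68 (2.76 to 5.04). Upk1a was at 398 against 151 CPM, a ratio of 2.63 (2.29 to 3.03). Upk1b was at 1298 against 637 CPM. Upk3a was at 442 against 182 CPM, a description only, since it is a gene of the rule. Krt18, a keratin of simple epithelia, was at 297 against 126 CPM and its partner Krt8 at 193 against 81.3 CPM. Other leading genes were Fam25c at 76.6 against 11.1 CPM, the GPI-anchored surface protein Psca at 138 against 36.9 CPM and S100a1, a calcium-binding protein, at 52.1 against 11.8 CPM.

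The basal list as a sum went the other way by less than the 2-fold threshold. Outside the rule it summed to 2212 CPM above and 2808 CPM at or below the limit, a ratio of 0.788 (0.762 to 0.814). Of 9 tested genes 0 differed 2-fold, and 2 were higher above the limit. Shh, from that list, had a UMI in 31.9% of nuclei above and 17.5% at or below it, and thinned in 3.82% and 1.80%, with overlapping intervals. Trp63 was at 1196 against 1572 CPM, and Krt5, a gene of the rule, at 127 against 144 CPM. Thinned, a Krt5 UMI was seen in 7.63% (6.97 to 8.32) and 9.01% (5.59 to 13.6), which overlap. Itgb4, the hemidesmosome integrin, was at 141 against 191 CPM. Of the regulators, Gata3 was at 1029 against 931 CPM and Pparg at 2415 against 2432 CPM. None of the 15 genes of that list was 2-fold apart, and since 0.454% and 1.08% of all genes were, nothing is read from these counts of 0.

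RNAs with known places in the cell differed too. The 83 ribosomal protein genes, whose mature mRNA is mostly cytoplasmic, summed to 9184 CPM above and 5068 CPM at or below the limit, a ratio of 1.81 (1.77 to 1.86). Of the 80 tested 4 were at least 2-fold higher, beside 0.454% of all genes, and the median log2 ratio of the 80 was 0.76. Malat1, a nuclear non-coding RNA, was at 23949 against 32967 CPM. Of the other 3 genes of the nuclear-retained list, Kcnq1ot1 was also lower, at 326 against 355 CPM, while Neat1 was higher, at 1396 against 1195 CPM, as was Meg3, at 245 against 217 CPM, and 0 of the 4 were 2-fold apart. The nuclear-encoded respiratory chain genes summed to 2824 against 2205 CPM, and 0 of 78 tested genes were 2-fold apart.

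Markers of other cells differed in both directions. The macrophage list outside the rule summed to 151 CPM above and 123 CPM at or below the limit, a ratio of 1.22 (1.05 to 1.44), and the endothelial list to 22.5 against 14.8 CPM, a ratio of 1.52 (0.980 to 2.51). In each list 2 of 3 tested genes were higher above the limit and 0 were 2-fold apart. The mean log2 ratio over the 3 genes was -0.09 for macrophage and 0.15 for endothelial genes. The adrenal cortex list summed to 24.1 CPM above and 163 CPM at or below the limit, and 4 of its 5 tested genes were 2-fold lower. The stromal list outside the rule summed to 21.1 against 109 CPM, with 3 of 6 tested genes 2-fold lower. Over all genes tested 1.08% were at least 2-fold lower above the limit. Mesothelial genes summed to 2.07 against 26.6 CPM and smooth muscle genes to 2.81 against 16.3 CPM. Nuclei with at least 2 UMIs of these 4 lists made up 2.74% above and 8.07% at or below the limit. Without such nuclei the genes at least 2-fold lower above the limit numbered 63 rather than 145, an alternative whose 4 lists were chosen after these values were seen, so that it removes the pattern by construction. The leading lower genes were Nxph1, at 2.18 against 81.3 CPM, Abcb1b, a drug efflux pump, at 6.33 against 95.3 CPM, and Plcb1, a phospholipase, at 32.6 against 253 CPM.

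The change was gradual rather than a step at 10%. Nuclei at 8 to 10% (n = 58) and at 10 to 12% (n = 128) had uroplakin sums of 852 and 901 CPM. From the bin of 5 to 10% (n = 109) upward, the sum was 822, 1175, 1717, 2388, 4053 and 7974 CPM in the bins to 10, 20, 30, 40, 60 and 100%. Across the same bins Trp63 went from 1779 to 189 CPM and Malat1 from 34379 to 17355 CPM, while Gata3 stayed between 893 and 1101 CPM. The basal list went from 3046 to 1383 CPM and the ribosomal list from 4718 to 21513 CPM. The lowest bin, 0 to 5% (n = 114), broke the order with 1447 CPM of uroplakins, and in that bin 10.5% of nuclei had at least 2 UMIs of the 4 other-cell lists. Across the 6320 nuclei Spearman's rho between mitochondrial share and non-mitochondrial UMIs was -0.39, a description over nuclei of 1 library that share its preparation.

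**Figure D3:**
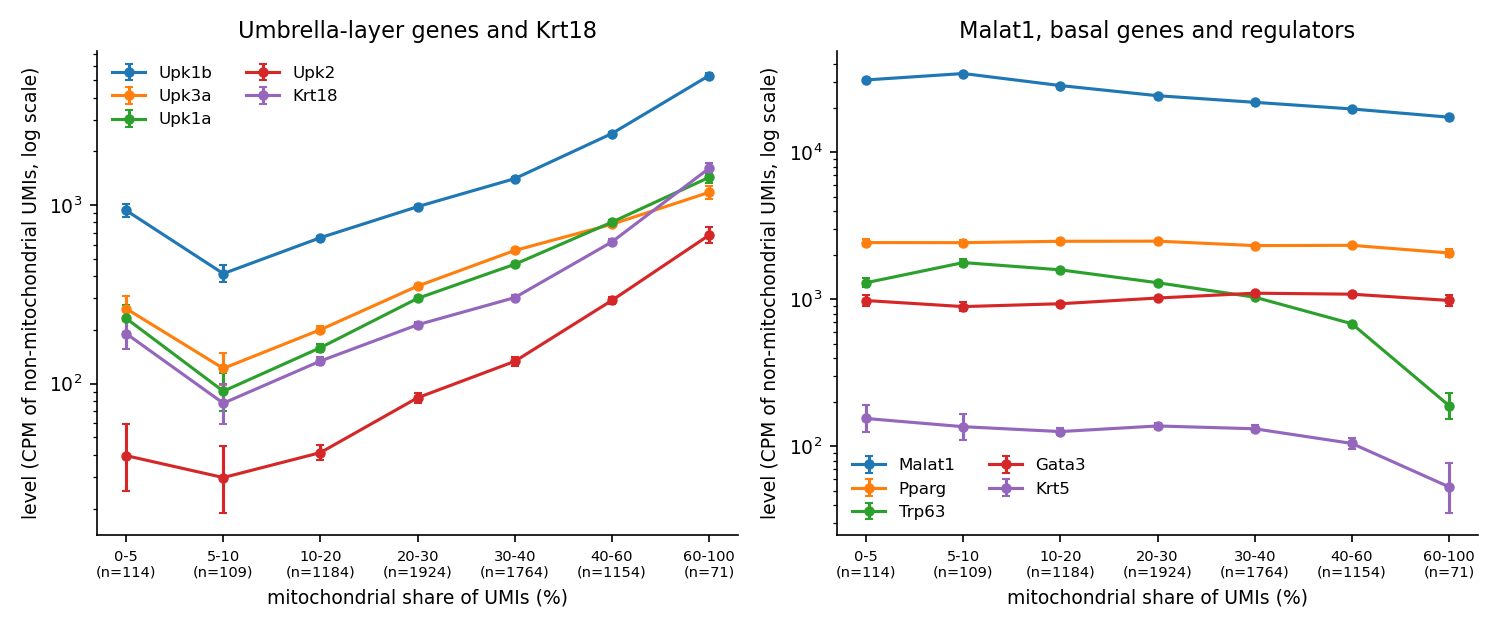
Level of 10 genes in CPM of non-mitochondrial UMIs (log axes) by bin of mitochondrial share among the 6320 urothelial-marker nuclei, with exact Poisson 95% intervals. From 5% upward the 4 uroplakins and Krt18 climb, Trp63 goes from 1779 to 189 CPM and Pparg and Gata3 stay nearly level. Upk3a and Krt5 are among the genes that chose the nuclei, so their levels are a description.

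The adipocyte-marker nuclei of the library resembled this in umbrella and ribosomal genes and differed in basal genes. Those above the limit (n = 268) had 703 CPM of the uroplakin list and those at or below it (n = 2098) 186 CPM, a ratio of 3.77 (3.52 to 4.04). Their ribosomal protein genes summed to 5396 against 2935 CPM, a ratio of 1.84. Their basal list was higher above the limit, at 1080 against 577 CPM, a ratio of 1.87 (1.78 to 1.97), and 8 of 11 tested urothelial regulators were at least 2-fold higher. In this comparison 6.49% of 11195 genes were at least 2-fold higher and 0.607% at least 2-fold lower. The part of free or mixed RNA in the differences within urothelial-marker nuclei was not tested.

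The other mPRAT libraries allowed the same split. The uroplakin sum was higher above the limit in 4 of 4 mPRAT libraries, with 1523 against 1010 CPM at 2 months, 1101 against 602 CPM at 1 month and 962 against 735 CPM at 6 months and room temperature. The ribosomal list was higher and Malat1 lower above the limit in 4 of 4. The basal list was lower above the limit in 3 of 4, and at 6 months and room temperature it was at 2715 CPM above and 1876 CPM at or below it.

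The urothelial-marker nuclei varied in the basal gene Krt5 and the umbrella gene Upk3a. Krt5 without Upk3a was seen in 895 nuclei (14.2%), Upk3a without Krt5 in 2639 (41.8%), both in 2078 (32.9%) and neither in 708 (11.2%). Classes cut on 1 UMI depend on depth, and medians of non-mitochondrial UMIs were 4646, 5200, 5889 and 4367 in that order. A Upk3a UMI was found in 69.9% (68.2 to 71.5) of nuclei with Krt5 and in 78.8% (77.4 to 80.2) of those without, and after thinning to 500 UMIs in 15.7% (12.6 to 19.2) and 19.5% (18.5 to 20.6). Both genes count toward the rule, which by itself makes them trade off, so nothing is read from these shares. With genes outside the rule, a Krt5 UMI was seen after thinning in 7.53% of nuclei with Trp63 and 8.13% of those without. It was seen in 8.00% of nuclei with Upk1b and 7.81% of those without, with overlapping intervals in both cases. For a Upk3a UMI the thinned shares were 17.0% (15.6 to 18.5) with Trp63 and 20.8% (19.5 to 22.1) without. They were 22.4% (20.7 to 24.1) with Upk1b and 17.3% (16.1 to 18.5) without, and neither of these pairs of intervals overlapped. With Krt20 and without it they were 19.5% and 19.2%, with overlapping intervals.

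Genes beyond the pair differed between Krt5-only and Upk3a-only nuclei. Of 12329 genes tested, 0.86% were at least 2-fold higher and 1.37% at least 2-fold lower in Krt5-only nuclei. Nrg1, the ErbB ligand neuregulin, was at 229 CPM in Krt5-only and 26.7 CPM in Upk3a-only nuclei, a ratio of 8.57 (7.66 to 9.59). The gasdermin gene Gsdmc2 was at 272 against 34.2 CPM, the cadherin Cdh13 at 183 against 28.7 CPM and the matrix protein gene Thbs1 at 122 against 27.0 CPM. In the other direction, Kcnma1, the BK potassium channel, was at 16.3 against 231 CPM, a ratio of 0.0707 (0.0556 to 0.0887). Unc13c, a vesicle priming factor, was at 7.95 against 175 CPM, Fut9, a fucosyltransferase, at 26.6 against 253 CPM, and the non-coding RNA Meg3 at 38.5 against 340.3 CPM. The basal list summed to 2859 against 2012 CPM and the uroplakin list to 1150 against 2622 CPM. The median mitochondrial share was 23.0% in Krt5-only and 32.3% in Upk3a-only nuclei, and 93.7% and 97.7% of them lay above 10%.

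**Figure D4:**
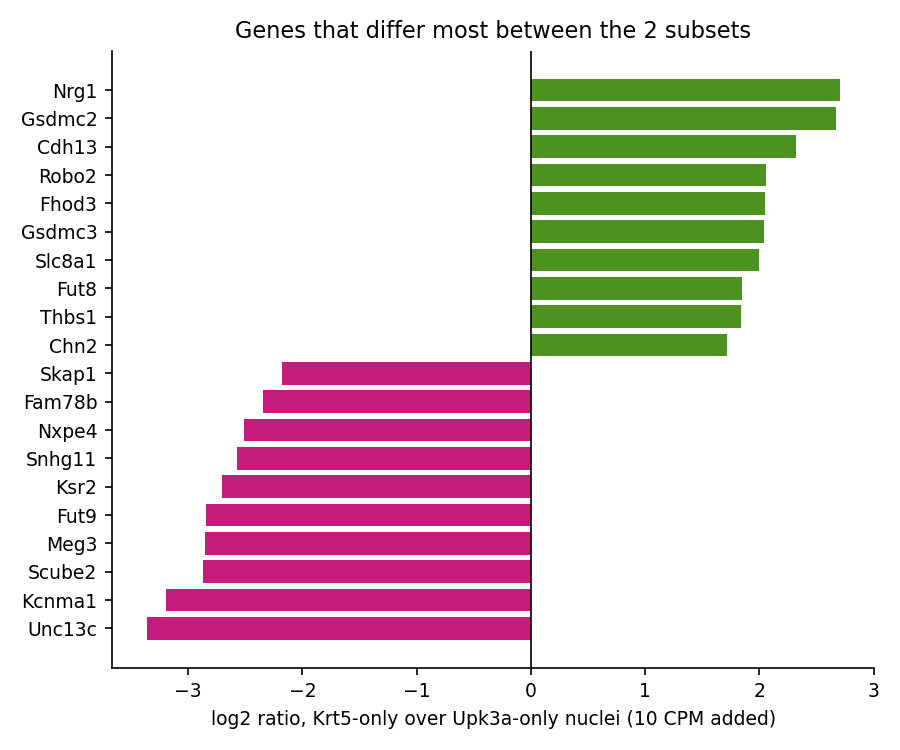
Log2 ratio of CPM (10 CPM added) for the 10 genes highest and the 10 lowest in Krt5-only (n = 895) over Upk3a-only (n = 2639) nuclei of cold mPRAT. Bars to the right are higher in Krt5-only nuclei, led by Nrg1, and bars to the left are lower there, led by Unc13c.

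Urothelial-marker nuclei were found in every mPRAT library and in lPRAT at 6 months, and elsewhere in at most 3 barcodes. They made up 5.32% of barcodes at 1 month (310), 19.6% at 2 months (1549), 1.32% at 6 months and room temperature (154) and 56.8% in the cold. The cold share exceeded that at room temperature at 6 months by 55.4 percentage points. With 1 library on each side, cold cannot be told apart from the amount of urothelium taken along in dissection. In lPRAT there were 52 at 6 months, 0.826% of barcodes, and 1 at 2 months. By the 4-gene rule 45 nuclei of lPRAT and 90 of mPRAT were found at 6 months and room temperature. Cold iBAT held 1, cold iWAT held 3, and the 4 other libraries held 0. A count of 0, taken as up to 3 counts, allows a share of up to 0.0140% in iBAT at 6 months and up to 0.0355% in iWAT at room temperature.

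A high mitochondrial share went with these nuclei outside cold mPRAT as well. It was above 10% in 70.3% (64.9 to 75.4) at 1 month, 79.2% (77.1 to 81.2) at 2 months, 61.7% (53.5 to 69.4) at 6 months and room temperature and 100% (93.2 to 100) in lPRAT at 6 months. Adipocyte-marker nuclei of these libraries lay above the limit in 0.784%, 1.53%, 0.206% and 0.499%, in the same order. The excess over adipocyte-marker nuclei was present in 5 of 5 libraries with at least 50 urothelial-marker nuclei, at 78.7 ± 14.6 percentage points (SD, n = 5). These 5 include cold mPRAT, and no test is given. Some urothelial-marker nuclei carried UMIs of the kidney genes Pax8, Aqp2 or Slc14a2. Of such nuclei 67 of 96 lay above the limit at 1 month and 66 of 98 at 2 months. At 6 months 8 of 28 did at room temperature and 106 of 115 in cold mPRAT. Of all urothelial-marker nuclei 218 of 310, 1227 of 1549, 95 of 154 and 6097 of 6320 did, in the same order. A high share thus also occurred in nuclei with kidney marker RNA, but less often than over all nuclei at 6 months and room temperature.

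**Figure D5:**
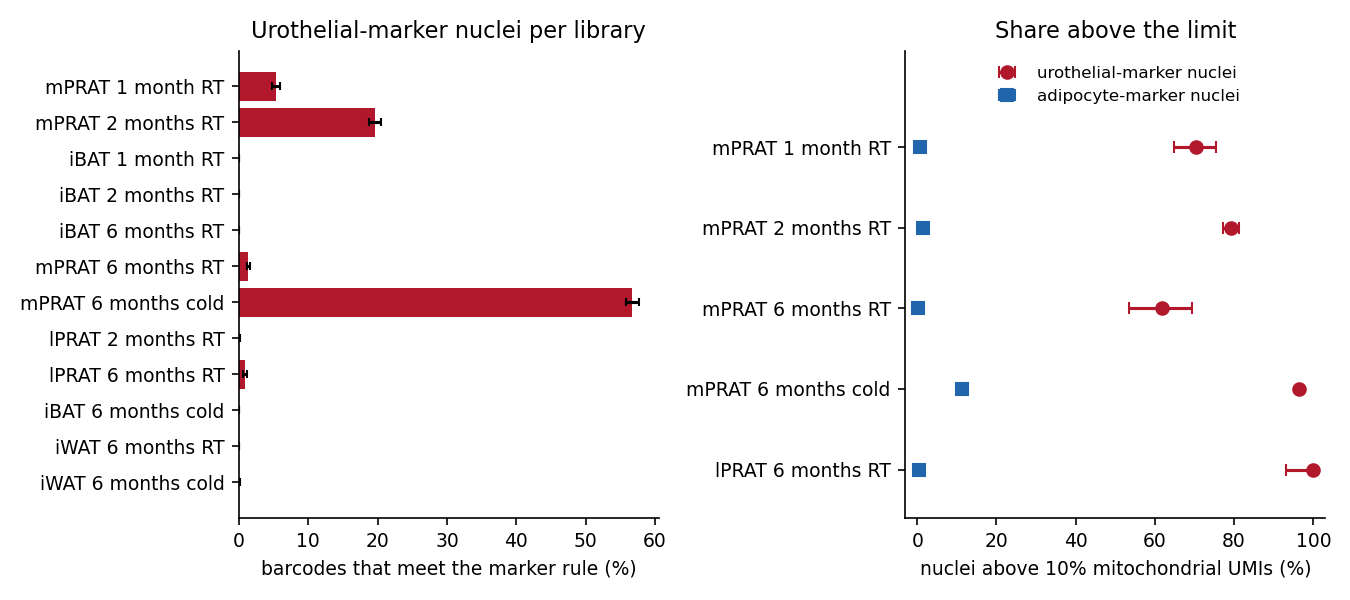
Left, share of barcodes with at least 300 genes that met the urothelial marker rule in each of 12 libraries (x axis, %). Right, share of urothelial-marker and adipocyte-marker nuclei above 10% mitochondrial UMIs in the 5 libraries with at least 50 urothelial-marker nuclei. Bars are exact 95% intervals, RT is room temperature, and the red points lie right of the blue in all 5.

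The nuclei chosen at room temperature were not all of the same kind. At 6 months Slc14a2, the urea transporter of the inner medullary collecting duct, was at 4707 CPM in the 154 room-temperature nuclei and at 5.60 CPM in cold. Pax8 was at 163 against 1.95 CPM. A UMI of Pax8, Aqp2 or Slc14a2 was present in 18.2% of the room-temperature nuclei, 31.0% of those at 1 month, 6.33% at 2 months and 1.82% in cold. With only Upk3a, Krt5, Krt7 and Grhl3 as marker genes, 90 nuclei remained at room temperature with Slc14a2 at 371 CPM, and 54 of them lay above the limit.

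Between cold and room temperature at 6 months, umbrella genes were higher in cold. The uroplakin list summed to 2152 against 855 CPM, a ratio of 2.52 (2.35 to 2.70), and 4 of 6 genes were at least 2-fold higher, beside 0.783% of all 13532 genes. Upk3bl, a weakly counted uroplakin-like gene at 2.03 CPM in cold, was at least 2-fold lower. Restricted to nuclei above the limit the ratio was 2.28 (2.08 to 2.49) and 2 of 6 genes were at least 2-fold higher, with 1.52% of 13397 genes at least 2-fold higher and 1.84% lower, while the ribosomal list was at 9184 against 9199 CPM, a ratio of 0.998 (0.970 to 1.03). The restriction did not match mitochondrial share, whose median above the limit was 29.7% in cold and 17.1% at room temperature. Cold nuclei at 10 to 20% mitochondrial UMIs had 1175 CPM of the list, and room-temperature nuclei above the limit had 962 CPM. The part of mitochondrial share in the difference was not tested. By the 4-gene rule, on both sides of the limit together, the sums were 2295 and 1033 CPM. The basal list was at 2232 against 2319 CPM. Fam25c was at 74.3 CPM in cold and 3.12 CPM at room temperature, Psca at 134 against 13.5 CPM, the cornified envelope gene Ivl at 78.0 against 12.5 CPM and Fmo5 at 2490 against 631 CPM. Genes lower in cold, 2.2% of those tested, were led by Slc14a2, Pde1c and Col4a3, a collagen of kidney basement membranes.

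The nuclei of cold mPRAT were also set against those of the remaining libraries, and all of these comparisons share the cold nuclei. Against mPRAT at 2 months 0.511% of 13891 genes were at least 2-fold higher in cold and 0.432% at least 2-fold lower. The uroplakin list stood at 2152 against 1378 CPM there, a ratio of 1.56 (1.53 to 1.59), and 0 of its 6 genes were 2-fold apart. Against 1 month 1.8% of 13614 genes were higher and 2.56% lower, and the uroplakin list stood at 2152 against 936 CPM, with 4 of 6 genes 2-fold higher. Meg3 was at 244 CPM in cold, 47.9 CPM at 6 months and room temperature, 15.7 CPM at 2 months and 13.2 CPM at 1 month. Psca was at 134, 13.5, 21.6 and 6.88 CPM in the same order, and Fam25c at 74.3, 3.12, 5.06 and 2.29 CPM. Sprr1a was at 1079 CPM in cold, 330.1 CPM at 6 months and room temperature, 289 CPM at 2 months and 159 CPM at 1 month.

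The 52 nuclei of lPRAT at 6 months and room temperature were the nearest to those of cold mPRAT in their uroplakin level. Their list summed to 2231 CPM against 2152 CPM, a ratio of cold mPRAT over lPRAT of 0.965 (0.883 to 1.06), and Meg3 was at 492 CPM and Psca at 156 CPM. Their median mitochondrial share was 41.6%. In this comparison 2.05% of 13448 genes were at least 2-fold higher in cold mPRAT and 2.06% at least 2-fold lower. Cold mPRAT shared 14 barcodes with this library, 10 of them from its urothelial-marker nuclei. None of the 10 belonged to a urothelial-marker nucleus in lPRAT, and nothing is read from so few.

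Cell barcodes of 193 urothelial-marker nuclei (3.05%) occurred in another library, and 2 of these were urothelial-marker nuclei there, both in mPRAT at 2 months. Over the whole cold mPRAT library 335 barcodes occurred in another library, and urothelial-marker nuclei were 56.8% of its barcodes. Nothing about these nuclei is read from the count. Just inside the rule, 425 nuclei with exactly 3 marker UMIs lay above the limit in 89.6%, and just outside it 324 barcodes with 2 UMIs of 2 genes did in 78.1%. Outside its other edge, 305 barcodes with at least 3 marker UMIs that did not exceed the other-cell sum lay above the limit in 59.3%, with a median mitochondrial share of 12.96%.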

How the data were processed

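Nuclei were isolated from adipose tissue, stained with 7-AAD, sorted and run on the 10x 3′ chemistry, per the labels' protocols. The authors deposited raw UMI counts per gene and barcode, made with Cell Ranger 7.0.0 and mm10 per the submitters' processing notes. Whether intronic reads were counted, and whether free RNA was removed, is not given in the sources used here. The members and gene lists were chosen with earlier results of these data known. UMIs were summed over nuclei and divided by non-mitochondrial UMIs (CPM). Genes with at least 50 counts over both sets were compared as log2 ratios with 10 CPM added, called at 2-fold. Ratios have exact conditional binomial intervals, levels exact Poisson intervals and shares exact Clopper-Pearson intervals, all at 95%. Adipocyte-, endothelial-, stromal- and macrophage-marker nuclei needed at least 3 UMIs of their own list with at least 2 of its genes seen. That sum also had to exceed the UMIs of the 7 urothelial genes and the other classes' lists together. Barcodes rich in urothelial marker RNA were thus kept out of these sets. Genes were named from the lists or, with at least 50 CPM, as the 10 highest and 10 lowest of a comparison (20 highest against other barcodes). Doublets were kept. As an alternative, scrublet in scanpy 1.11.5 removed the highest scores at 0.8% per 1000 barcodes, 992 barcodes and 646 urothelial-marker nuclei (10.2%). Its own threshold marked 2.06%. Other alternatives changed the rule, limit, pseudocount and scaling (edgeR 4.0.16 for TMM). The ratio calculation was tested on simulated data. Gene positions are from GENCODE M21 (GRCm38).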

Additional observations from a re-analysis of the deposited data

Results flagged for a closer look

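The basal gene list differed in direction between the libraries of 6 months. Its log2 ratio, above over at or below 10% mitochondrial UMIs, was -0.34 in cold mPRAT and 0.53 in mPRAT at room temperature, and this difference was not tested since each group is 1 library. At room temperature a UMI of Pax8, Aqp2 or Slc14a2 was present in 8.42% of the 95 nuclei above the limit and in 33.9% of the 59 at or below it. By the 4-gene rule the log2 ratios were -0.38 and 0.15. The part of kidney-marker nuclei was not tested.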

How the results depend on the processing

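No share, difference or ratio changed sign under any alternative, though the interval of the basal ratio reached past 0 when thinned (-0.33 to 0.02), and 55 of 106 recomputed values stayed within the counting error of the first, or within 1.5 times for counts of genes. The other 51 follow. The share of barcodes that met the rule in cold mPRAT, and its excess over room temperature in points, was 57.8% and 56.5 with at least 500 genes, 61.9% and 60.2 with at least 1000 genes, 48.4% and 47.3 with at least 5 marker UMIs, 50.2% and 49.2 with at least 3 marker genes, 46.2% and 45.4 with only Upk3a, Krt5, Krt7 and Grhl3, and 29.7% and 29.3 with no UMI of the 7 other-cell genes. The share above the limit was 97.3% with at least 5 marker UMIs, 97.2% with the 4 genes, 98.2% at a limit of 5% and 77.7% at 20%. The excess over adipocyte-marker nuclei was 89.0 points without scrublet doublets, 80.4 at a limit of 5% and 73.0 at 20%.

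The log2 ratio of uroplakins over adipocyte-marker nuclei was 3.09 with at least 5 marker UMIs, 3.13 with the 4 genes, 2.95 with no other-cell UMI, 3.46 without doublets, 2.58 in CPM of all UMIs, 2.82 as a mean of nuclei, 2.65 with TMM and 2.97 thinned. Above over at or below the limit, uroplakins and the basal list stood at 0.82 and -0.45 with no other-cell UMI, 0.58 and -0.16 at 5%, 1.12 and -0.43 at 20%, 0.55 and -0.80 in CPM of all UMIs, 0.79 and -0.26 as a mean of nuclei, and 0.72 and -0.16 thinned. Genes at least 2-fold higher and lower numbered 102 and 83 with no other-cell UMI, 118 and 43 at 20%, 752 and 453 with 1 CPM added, 5 and 262 in CPM of all UMIs, and 34 and 267 as a mean of nuclei. Thinned, 626 were higher and 165 lower, and without nuclei holding at least 2 UMIs of the 4 other-cell lists 65 and 63. Of the 61 higher and 145 lower, the balance thus turned under 5 of these settings: no other-cell UMI, 20%, 1 CPM added, thinned and without such nuclei. CPM of all UMIs moved the median log2 ratio of all genes to -0.21. The counts of 2-fold genes thus depend on the setting, and their causes were not tested.

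No paired analysis between groups was possible because each group is 1 library, and for the same reason no replicate was left out. Pairing within libraries was used only for the difference between urothelial-marker and adipocyte-marker nuclei over 5 libraries, given above without a test. The 223 nuclei at or below the limit set the precision of that comparison.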
